A study of Arabidopsis thaliana with 8 samples.

Results

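The genes described here are 55 genes of late pollen and the pollen tube, out of 25738 genes listed in at least 1 library of floral buds. They were chosen by locus from what is known of their function, with earlier results of these data at hand. They encode wall proteins and enzymes, receptor kinases, peptide ligands, ROP GTPase and calcium signalling proteins, transporters and pumps, actin cytoskeleton proteins, MIKC* MADS transcription factors and sperm cell proteins. All 55 were listed in at least 1 library. The question addressed was how far these transcripts, which appear late in anther development, differed between genotypes and between the 2 libraries of a genotype.

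RNA was sequenced from *elf6*, *jmj13*, *ref6* and Col-0 buds at stages 9 to 13 of the primary inflorescence, with 2 libraries per genotype and 8 in all. Col-0 is the wild type, and the other genotypes are T-DNA insertion lines in the Col-0 background. The labels give no plant age. ELF6, JMJ13 and REF6 encode demethylases that remove the repressive mark H3K27me3. The methods name the lines *elf6-3*, *ref6-1* and, for *jmj13*, a GABI insertion line, whereas the labels name no allele and the sources do not agree on the *elf6* allele. The insertion in the *ref6* line is described as leaving the catalytic domain in place. A library was made from many buds, and no source says whether the 2 libraries of a genotype came from separate plants. The p-values therefore measure only the spread between these libraries.

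A pollen grain holds a large vegetative cell, which later grows the tube, and the male germline that gives the sperm cells. The vegetative cell stores transcripts for tip growth late in its maturation, after the tapetum that fed it has broken down. During growth, RALF peptides are sensed at the wall by ANX and related receptor kinases together with LRX proteins, PRK kinases activate ROP GTPases through ROPGEFs, and calcium, proton and actin dynamics drive the tip. MIKC* MADS dimers activate many genes of this late programme.

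The total of expected counts per library was between 11373306 and 12048319. Of the listed genes, 19939 had enough counts to be tested, and these included 52 of the 55 members. Counts of the disrupted gene were lower only for ELF6, with 18 and 28 in *elf6* and 68 and 88 in Col-0. JMJ13 counts were 45 and 45 in the libraries labelled *jmj13* and 22 and 51 in Col-0. REF6 counts were 130 and 119 in the libraries labelled *ref6* and 90 and 103 in Col-0. Whole-gene counts therefore check the *elf6* label but not the other mutant labels. The first libraries of *ref6* and Col-0 stood apart. Their 50 most abundant genes took 30.46% and 29.31% of the counts, against 18.39% to 21.38% in the other 6 libraries. Results that rest on these 2 libraries are also given without them.

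Levels of different genes were compared in TPM, which is scaled for gene length and library. AGP11 (AT3G01700) and AGP6 (AT5G14380), arabinogalactan proteins of the pollen wall, were the most abundant members. AGP11 had a mean of 656 TPM (245 to 1183 TPM over the 8 libraries) and AGP6 a mean of 414 TPM (188 to 714 TPM). These ranges overlapped, although AGP11 had more counts than AGP6 in every library (1.11 to 1.68 times). The pectin methylesterase VGD1 (AT2G47040), needed for tube growth through the style, had a mean of 183 TPM, and its tandem neighbour VGDH1 (AT2G47030) had 102 TPM. ACT1 (AT2G37620), PPME1 (AT1G69940), another pectin methylesterase, and ACT3 (AT3G53750) followed with means of 100.2, 95.2 and 92.4 TPM, within each other's ranges.

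Most of the signalling members were scarce. Means were between 0.144 and 5.97 TPM for the 6 PRK receptor kinases, which act at the tube tip, with PRK2 the highest and PRK1 the lowest. ANX1 (AT3G04690) and ANX2 (AT5G28680), the receptor kinases that keep the tube wall intact, had 1.77 and 1.43 TPM. AT4G39110, annotated as a malectin receptor-like kinase, had 11.7 TPM. The ligands RALF4 (AT1G28270) and RALF19 (AT2G33775) reached 43.3 and 31.1 TPM, and the LRX proteins that bind RALF peptides in the wall had means from 22.6 TPM (LRX9) to 44.8 TPM (LRX10). ROP1 (AT3G51300), a GTPase of the tube tip, had 16.7 TPM, and its activators ROPGEF12 and ROPGEF9 had 4.92 and 0.581 TPM. In the male germline group, the histone variant gene MGH3 had 4.34 TPM, and the germline regulator DUO1 and the gamete fusion genes GEX2 and HAP2 had 0.642, 0.555 and 0.211 TPM. Of the 55 members, 11 had a mean under 1 TPM.

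Transporters and the cytoskeleton filled the middle of the range. SUC1 (AT1G71880), a sucrose carrier, had a mean of 65.1 TPM, and the hexose carriers STP11 and STP9 had 16.4 and 11.8 TPM. Of the proton pumps, AHA8 had 40.7 TPM, against 5.11 TPM for AHA9 and 3.56 TPM for AHA6, and the calcium pump ACA9 had 4.93 TPM. The profilins PRF5 and PRF4 had 56.3 and 37.3 TPM, the actin-bundling PLIM2A had 20.4 TPM, and the actin depolymerizing factors ADF10 and ADF7 had 16.4 and 13.8 TPM with overlapping ranges. ACT11 had 68.9 TPM, whereas the other pollen actins ACT12 and ACT4 had 19.9 and 6.90 TPM. The 5 MIKC* genes, whose products regulate the late programme, had means from 0.751 TPM (AGL65) to 3.09 TPM (AGL30).

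PRK1, DUO1 and HAP2 had too few counts to be tested. PRK1 had 0 and 9 counts in *elf6*, 9 and 0 in *jmj13*, 0 and 2 in *ref6*, and 0 and 4 in Col-0. DUO1 had 4 and 6, 9 and 10, 3 and 6, and 5 and 4 counts in *elf6*, *jmj13*, *ref6* and Col-0. HAP2 had 12 and 3, 6 and 4, 6 and 7, and 0 and 2 counts in the same genotypes. Counts this low leave no difference detectable at this depth.

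The promoters are shown because the MIKC* factors among the members bind a known sequence, the MEF2-type CArG box, which could be searched for in the other members. The windows run from 250 bases before to 50 bases after the annotated gene start, in the TAIR10.1 build, from RefSeq. The box occurred on either strand in 14 of 55 members (25.5%), against 684 of 27443 windows of all protein-coding genes (2.49%). The members with a match were VGD1, VGDH1, AGP6, PRK3, AT4G39110, AT2G21480, LRX9, LRX10, STP9, AHA8, AGL104, ACT12, ADF7 and ADF10. The broader N10-type CArG box, of which the MEF2-type box is one form, occurred in 43.6% of members and 28.4% of all windows. Motifs known from late pollen genes of other species were more even. AGAAA, from tomato LAT52, occurred in 94.5% of members and 88.5% of all windows, and GTGA, from tobacco g10, in 89.1% and 84.4%. For LRX10, PRK6 and GEX2 the annotated start is the start codon, so their windows hold the untranslated leader if they have one.

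6 promoters with the box are given 5′ to 3′ on the strand of the gene, with the MEF2-type CArG box in capitals. VGD1 is shown from chr2:19330148-19330447 on the minus strand. VGDH1 is shown from chr2:19326435-19326734 on the minus strand. AGP6 is shown from chr5:4636627-4636926 on the minus strand. ADF7 is shown from chr4:13060201-13060500 on the minus strand. ADF10 is shown from chr5:21259359-21259658 on the minus strand. ACT12 is shown from chr3:17127961-17128260 on the plus strand. The genes were picked as a tandem pair, an abundant wall gene, a pair of related genes and a pollen actin.
VGD1: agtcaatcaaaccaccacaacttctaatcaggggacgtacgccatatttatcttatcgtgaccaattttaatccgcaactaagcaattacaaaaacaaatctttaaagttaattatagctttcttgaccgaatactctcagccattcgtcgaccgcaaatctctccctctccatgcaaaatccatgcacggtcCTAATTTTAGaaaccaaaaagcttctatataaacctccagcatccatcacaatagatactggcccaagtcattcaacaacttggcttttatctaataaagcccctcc
VGDH1: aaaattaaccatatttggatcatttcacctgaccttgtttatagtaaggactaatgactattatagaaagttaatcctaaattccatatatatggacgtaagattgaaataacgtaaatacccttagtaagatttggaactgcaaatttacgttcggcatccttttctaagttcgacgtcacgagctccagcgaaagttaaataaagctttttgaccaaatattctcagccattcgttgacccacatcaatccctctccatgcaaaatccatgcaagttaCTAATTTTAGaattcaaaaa
AGP6: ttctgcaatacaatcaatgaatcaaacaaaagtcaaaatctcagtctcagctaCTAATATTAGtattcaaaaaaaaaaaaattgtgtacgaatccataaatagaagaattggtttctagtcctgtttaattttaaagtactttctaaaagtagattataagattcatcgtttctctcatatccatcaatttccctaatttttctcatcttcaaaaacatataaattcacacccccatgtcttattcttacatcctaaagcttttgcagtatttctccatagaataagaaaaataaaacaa
ADF7: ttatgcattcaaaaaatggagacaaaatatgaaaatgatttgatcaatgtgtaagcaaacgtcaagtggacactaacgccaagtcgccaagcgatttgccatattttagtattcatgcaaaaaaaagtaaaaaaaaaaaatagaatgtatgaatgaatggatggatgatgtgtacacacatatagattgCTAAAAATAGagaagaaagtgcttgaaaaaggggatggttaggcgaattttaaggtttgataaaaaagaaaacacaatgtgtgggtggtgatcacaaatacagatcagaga
ADF10: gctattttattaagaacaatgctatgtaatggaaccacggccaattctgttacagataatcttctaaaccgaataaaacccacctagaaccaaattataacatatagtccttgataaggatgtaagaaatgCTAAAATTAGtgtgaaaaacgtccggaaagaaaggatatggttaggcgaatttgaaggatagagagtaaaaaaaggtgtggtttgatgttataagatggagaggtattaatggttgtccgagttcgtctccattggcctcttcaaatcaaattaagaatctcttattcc
ACT12: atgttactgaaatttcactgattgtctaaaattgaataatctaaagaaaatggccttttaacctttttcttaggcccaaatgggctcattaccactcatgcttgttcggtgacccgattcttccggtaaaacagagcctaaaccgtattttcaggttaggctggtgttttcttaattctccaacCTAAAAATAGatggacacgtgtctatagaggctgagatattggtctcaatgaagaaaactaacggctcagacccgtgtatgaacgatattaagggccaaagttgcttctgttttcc
VGD1 and VGDH1 carried the same 10 bases, and so did ADF7 and ACT12. Counted from the annotated start, the box began at base -57 in VGD1, -197 in AGP6, -61 in ADF7, -119 in ADF10 and -66 in ACT12. In VGDH1 it began at base 30, after the annotated start. A match to a motif describes the sequence and does not show binding. The fitted changes of the 14 members with a box had medians of -0.81 (*elf6*), -0.50 (*jmj13*) and -0.64 (*ref6*) on the log2 scale, against -0.78, -0.36 and -0.40 in the 38 tested members without one.

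Across libraries, the members were high or low largely together, and the library mattered as well as the genotype. The 55 genes took 0.260% and 0.172% of the counts in *elf6*, 0.388% and 0.216% in *jmj13*, 0.213% and 0.232% in *ref6*, and 0.265% and 0.422% in Col-0. The highest share was in Col-0 replicate 2 and the lowest in *elf6* replicate 2. The first *jmj13* library lay above both *ref6* libraries and above Col-0 replicate 1, while the second lay close to *ref6*. In a bulk bud sample, fewer pollen grains and less RNA per grain cannot be told apart.

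**Figure D1:**
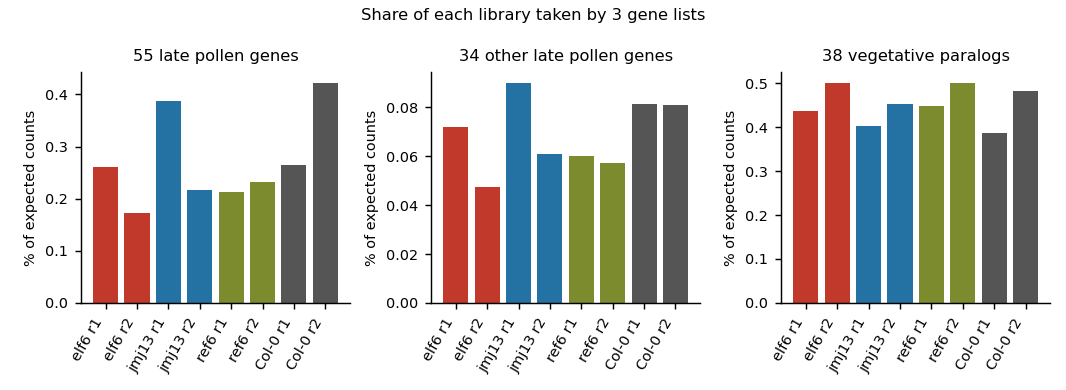
Percentage of the expected counts of each library taken by the 55 late pollen genes (left), 34 other late pollen genes (middle) and 38 vegetative paralogs (right). Each bar is 1 library (r1 and r2 are the replicates). The late pollen genes range from 0.172% in *elf6* replicate 2 to 0.422% in Col-0 replicate 2.

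Comparisons between libraries used normalised CPM, that is, expected counts scaled to a common library size with TMM factors, which set the bulk of genes level between libraries. The factors were 0.739 in Col-0 replicate 1, 0.742 in *ref6* replicate 1 and 1.012 to 1.218 in the other libraries. From here on, libraries of 2 genotypes said to be separated, or to lie above or below each other, are compared in normalised CPM unless TPM is named. The median of the members relative to their own mean over libraries was, on the log2 scale, -0.01 and -0.80 in *elf6*, 0.44 and -0.39 in *jmj13*, 0.04 and -0.16 in *ref6*, and 0.39 and 0.60 in Col-0. Of the 52 tested members, 33 had their lowest value in *elf6* replicate 2. The highest value fell in Col-0 replicate 2 for 18, in Col-0 replicate 1 for 13 and in *jmj13* replicate 1 for 10. In TPM the highest value was in *jmj13* replicate 1 for 27 and in Col-0 replicate 1 for 3, so the order of the top libraries depends on the scale. The lowest library was *elf6* replicate 2 on both scales.

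**Figure D2:**
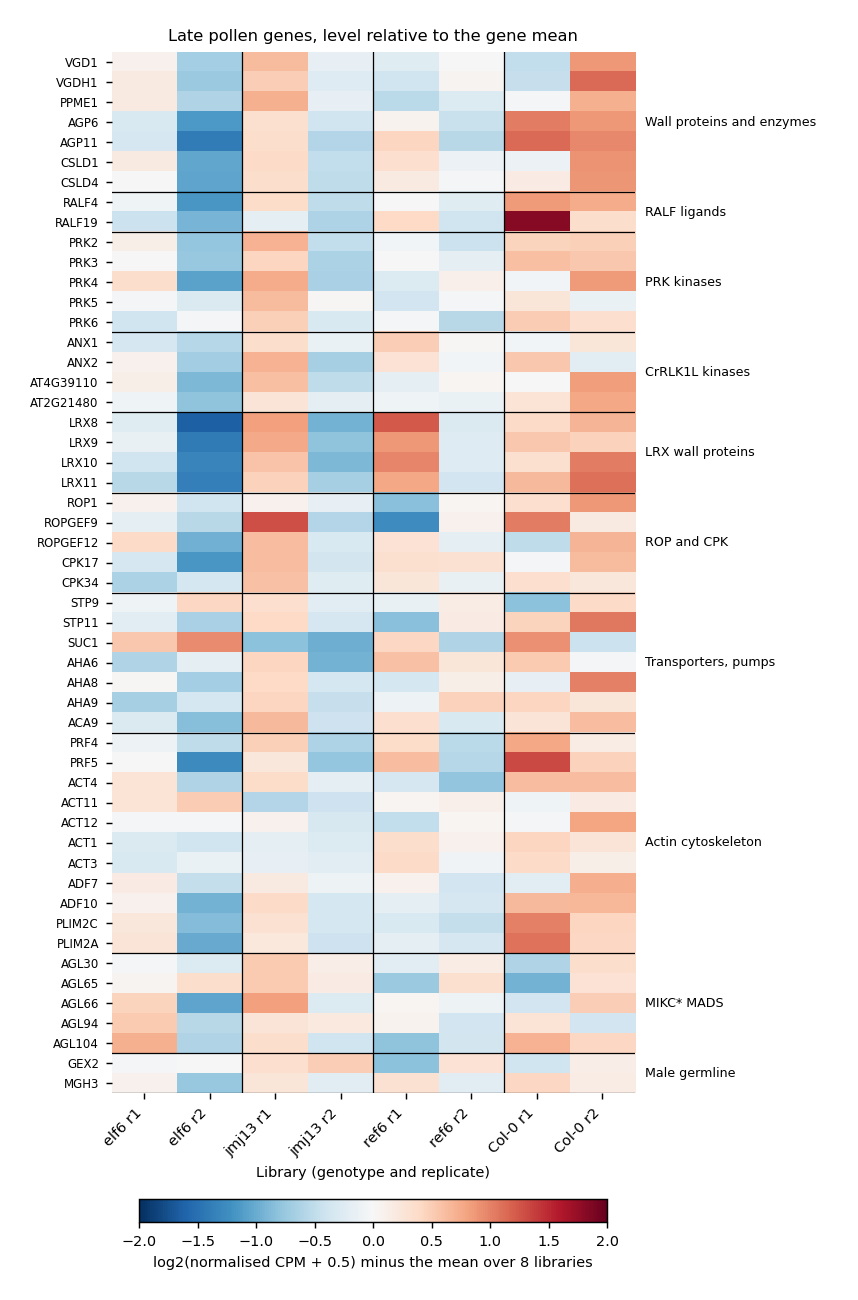
Level of the 52 tested late pollen genes (rows, by functional group) in the 8 libraries (columns), as log2(normalised CPM + 0.5) minus the mean of the gene over the libraries. Red is above and blue below the gene mean. *elf6* replicate 2 is blue for most genes, with 33 lowest values, and Col-0 is mostly red.

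Within *elf6* and within *jmj13*, most late pollen genes were more abundant in replicate 1 than in replicate 2. In *elf6*, 41 of 52 members were higher in replicate 1, where 49.6% of all tested genes were. In *jmj13*, 50 of 52 were, against 51.6% of all tested genes. The members' median log2 ratio of replicate 1 to replicate 2 was 0.82 in *elf6* and 0.85 in *jmj13*, while the median of all tested genes was 0.00 and 0.01. At least 2-fold more in replicate 1 was found for 18 of 52 members (34.6%) in each of these genotypes, against 3.53% of all tested genes in *elf6* and 3.37% in *jmj13*. The opposite, at least 2-fold less in replicate 1, was found for 0 members in either genotype, against 2.14% and 1.94% of all tested genes. With 1 library on each side these are descriptions without a test.

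The wall genes showed this difference in each of the 7 members. VGD1 had 352 and 207 normalised CPM in replicates 1 and 2 of *elf6* and 515 and 294 in those of *jmj13*. AGP11 had 308 and 148 in *elf6* and 502 and 261 in *jmj13*. CSLD1 and CSLD4, which make wall polysaccharide at the tube tip, had log2 ratios of 1.28 and 1.08 in *elf6* and 0.90 and 0.89 in *jmj13*. The LRX genes differed most between the replicates of *jmj13*. LRX8 had 121 and 35.2 normalised CPM in *jmj13* and 57.3 and 21.6 in *elf6*, and the median log2 ratio over the 4 genes was 1.53 in *jmj13* and 1.11 in *elf6*.

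Of the tested receptor kinase genes, 8 of 9 were higher in replicate 1 of *elf6* and 9 of 9 in that of *jmj13*, and of the ROP and calcium kinase genes 4 of 5 and 5 of 5. PRK4 had 8.05 and 2.72 normalised CPM in *elf6* and 10.8 and 3.79 in *jmj13*. AT4G39110 had 27.95 and 13.5 in *elf6* and 39.0 and 18.0 in *jmj13*. CPK17, a calcium-dependent kinase of the tube, had 3.47 and 1.76 in *elf6* and 7.25 and 3.41 in *jmj13*. The first library of each genotype was the higher one in all 3 genes. RALF4 did the same, with log2 ratios of 1.1 and 0.89. Among actin regulators, PRF5, a profilin of pollen that binds actin monomers, had 32.8 and 13.3 normalised CPM in *elf6* and 38.7 and 19.2 in *jmj13*. PLIM2A, which bundles actin filaments in the tube, had 20.8 and 8.39 in *elf6* and 20.1 and 12.9 in *jmj13*.

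A minority of members did not share the difference. ACT1 and ACT3, actins of pollen that other reproductive tissues also use, had log2 ratios of 0.10 and -0.17 in *elf6* and 0.09 and 0.05 in *jmj13*. ACT11, an actin of pollen and ovules, had -0.24 and -0.17. Over all 8 libraries ACT3 varied 1.26-fold and ACT1 1.48-fold in TPM, the only tested members under 2-fold, whereas the median member with counts in every library varied 3.79-fold. SUC1, a sucrose carrier of pollen and of other tissues, had -0.40 in *elf6* and 0.17 in *jmj13*. STP9 had -0.51 and 0.57, and GEX2 had -0.02 and -0.18. The proton pump genes AHA6 and AHA9 had -0.42 and -0.33 in *elf6*, but 1.44 and 0.93 in *jmj13*. PRK6, with 4 and 7 counts in *elf6*, had the lowest ratio of all members there (-0.68), and CPK34, the paralog of CPK17, had -0.43, but they had 1.23 and 1.06 in *jmj13*. The transporters and pumps were the group with the largest share of exceptions in *elf6*, with 3 of 7 higher in replicate 1, against 7 of 7 in *jmj13*.

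The scarce MIKC* and germline genes gave wide ratios. AGL66 had 1.82 and 0.320 normalised CPM in *elf6* and 2.51 and 0.910 in *jmj13*, and AGL104 had 2.53 and 0.719 in *elf6* and 1.87 and 0.910 in *jmj13*. AGL30 had log2 ratios of 0.28 and 0.42, ROP1 0.50 and 0.25, and MGH3 1.03 and 0.52. AGL66 had 4 counts in *elf6* replicate 2, so that its ratio rests on few reads.

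Lists of genes of other cell types had medians of smaller size between these replicates. Vegetative paralogs are relatives of the members used outside pollen. Of the 36 tested, 4 were higher in replicate 1 of *elf6* (49.6% of all tested genes) and 10 in that of *jmj13* (51.6%). Most of them were thus slightly lower in replicate 1, with median log2 ratios of -0.20 and -0.15. The 4 tested meiosis markers had medians of -0.26 and 0.07, and the 5 tested late stamen markers -0.19 and -0.02. The 12 tested tapetum markers had medians of -0.24 and 0.01, the carpel and ovule markers 0.07 and 0.11, and the green tissue markers 0.12 and -0.14. A second list of late pollen genes, with no member in common, had medians of 0.51 and 0.74, with 24 of 29 genes higher in replicate 1 in each genotype. That list too was chosen with earlier results of these data known.

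**Figure D3:**
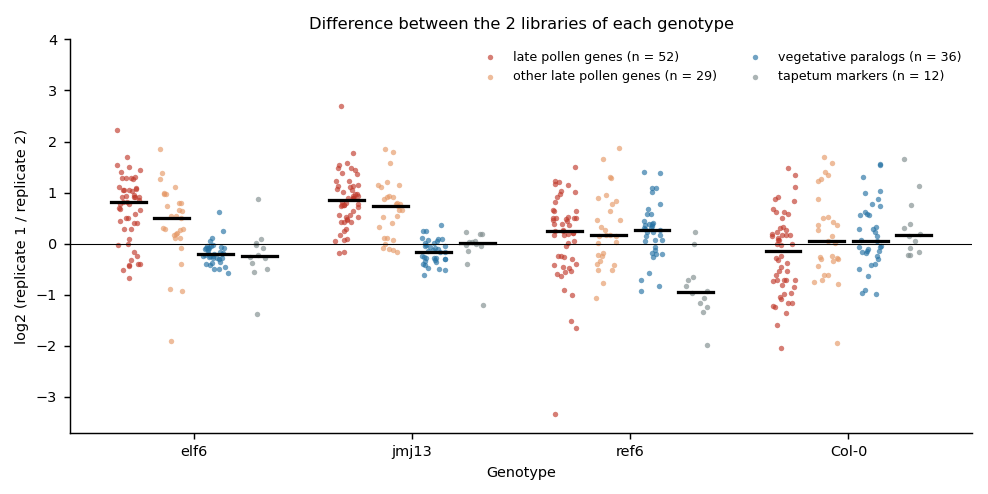
Log2 ratio of replicate 1 to replicate 2 (normalised CPM) in each genotype for the late pollen genes, other late pollen genes, vegetative paralogs and tapetum markers. Each point is 1 gene and the bar is the median of the list. The late pollen genes have medians of 0.82 in *elf6* and 0.85 in *jmj13*, while the vegetative paralogs have -0.20 and -0.15.

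The replicates of *ref6* and Col-0 gave no such common direction. In *ref6*, 34 of 52 members were higher in replicate 1 (48.1% of all tested genes), with a median log2 ratio of 0.25. The median of all tested genes was -0.03. Scaled by library size alone the medians were -0.27 over the members and -0.55 over all tested genes. The LRX genes stood out, with all 4 at least 2-fold higher in replicate 1, against 8.98% of all tested genes. LRX8 had 159 and 55.7 normalised CPM and LRX10 had 155 and 66.1. STP11 and GEX2 were lower in replicate 1, at 14.2 and 28.7 and at 0.565 and 1.79 normalised CPM. In all, 7 members were at least 2-fold higher and 4 at least 2-fold lower in replicate 1 (9.48% of all tested genes lower).

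In Col-0, 23 of 52 members were higher in replicate 1 (49.1% of all tested genes), with a median log2 ratio of -0.14 over the members and -0.01 over all tested genes. By library size alone these were -0.59 and -0.46. The pectin methylesterases were lower in replicate 1, with 236 and 602 normalised CPM for VGD1 and 123 and 370 for VGDH1. RALF19 had 71.7 and 25.6 normalised CPM and SUC1 196 and 77.4, so these were higher in replicate 1. Among members with a mean of at least 1 TPM, the highest log2 ratios were those of RALF19 (1.48), SUC1 (1.34) and PRF5 (0.87), and the lowest those of VGDH1 (-1.59), VGD1 (-1.35) and ROPGEF12 (-1.24). At least 2-fold differences were found in 3 members with replicate 1 higher (10.5% of all tested genes) and in 9 with replicate 1 lower (8.46%).

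The direction in Col-0 moved with gene length. For genes under 1000 bases the median log2 ratio was 0.24 in 10 members and 0.52 in all tested genes, and for genes over 2000 bases it was -0.49 in 20 members and -0.22 in all tested genes. In *elf6* and *jmj13* the medians of the members were 1.04 and 0.76 under 1000 bases and 0.87 and 1.01 over 2000 bases. With a correction for gene length, chosen after seeing the data, the median in Col-0 was -0.19 over the members, with 21 of 52 above 0, and 0.03 over all tested genes. In *ref6* the tapetum markers also differed between replicates, with a median log2 ratio of -0.94 and 11 of 12 lower in replicate 1. Their part in the members' ratios was not tested.

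Some pollen families can also be set against their vegetative relatives within a library, which needs no scaling between libraries. The summed TPM of the pollen profilins PRF4 and PRF5 was 20.3% and 10.6% of that of PRF1 to PRF3 in *elf6*, 31.7% and 13.3% in *jmj13*, 24.1% and 13.3% in *ref6*, and 31.3% and 25.8% in Col-0. The wall synthases CSLD1 and CSLD4 were at 30.4% and 11.9% of CSLD2, CSLD3 and CSLD5 in *elf6*, 36.8% and 16.3% in *jmj13*, 24.4% and 24.8% in *ref6*, and 29.9% and 46.0% in Col-0. The second libraries of *elf6* and *jmj13* were again below the first.

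The LRX family, like the others, gave the same order within *elf6* and *jmj13*. LRX8 to LRX11 summed to 44.5% and 17.0% of LRX3 to LRX5 in *elf6*, 169% and 67.9% in *jmj13*, 72.0% and 58.1% in *ref6*, and 68.7% and 111% in Col-0. Over 10 families, the ratio was higher in replicate 1 in 10 of 10 in *elf6* (1.37 to 2.81 times, median 1.91) and in 10 of 10 in *jmj13* (1.37 to 2.50 times, median 1.96). It was higher in replicate 1 in 4 of 10 in *ref6* and 3 of 10 in Col-0. The 10 leave out ACT1 with ACT3, and ACT11. No such ratio was formed for the sugar carriers, pectin methylesterases or receptor kinases. ACT11 was at 8.97% and 9.01% of ACT2, ACT7 and ACT8 in *elf6* and at 5.29% and 4.72% in *jmj13*. ACT1 and ACT3 were at 17.4% and 15.2% of the same genes in *elf6*, 20.5% and 15.4% in *jmj13*, 15.2% and 14.8% in *ref6*, and 20.0% and 17.1% in Col-0. The ratios compare replicates of 1 genotype best, since some vegetative paralogs themselves differed between genotypes. At an unadjusted p under 0.05 in edgeR's test, 5 of 36 tested were higher in *elf6* than in *jmj13* (5.99% of all tested genes). Of these, 3 were called, against 145 called higher of all 19939 tested genes.

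**Figure D4:**
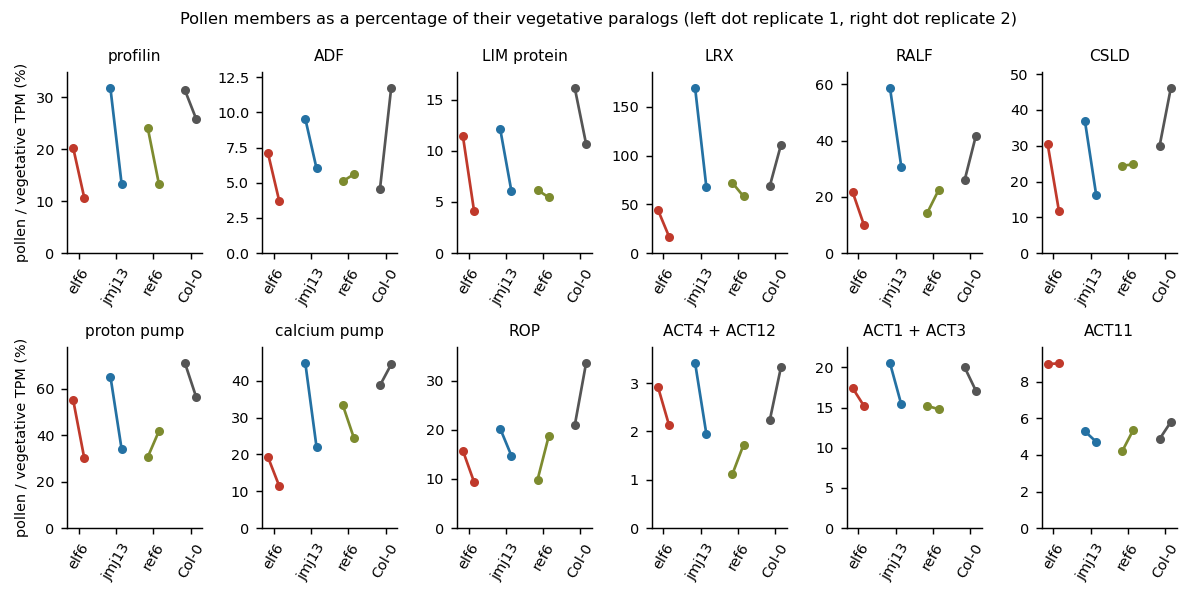
Summed TPM of the pollen members of a family as a percentage of the summed TPM of its vegetative paralogs, in each genotype (left dot replicate 1, right dot replicate 2, joined by a line). The first replicate of *elf6* and *jmj13* is higher in every family except ACT11 in *elf6* (8.97% and 9.01%), while ACT1 with ACT3 differs 1.15-fold between the replicates of *elf6* and 1.33-fold between those of *jmj13*.

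Most late pollen genes had lower fitted levels in the 2 *elf6* libraries than in the 2 Col-0 libraries. No single gene was called by edgeR's quasi-likelihood test. The members varied largely together across libraries, so their number does not stand for replication. Their median log2 ratio between the *elf6* replicates was 0.82, and the pooled SD of their median within genotypes was 0.42. They took 0.260% of the counts in *elf6* replicate 1 and 0.265% in Col-0 replicate 1. The fitted log2 fold change of *elf6* over Col-0 had a median of -0.79 over the 52 members and 0.03 over all tested genes, with 46 members below 0. Called genes (adjusted p under 0.05 and at least 2-fold in edgeR's quasi-likelihood test with Benjamini-Hochberg adjustment) were 0 of 52 members, against 0.12% of all tested genes. At an unadjusted p under 0.05, 18 members were lower (7.28% of all tested genes) and 0 higher (5.12%), and DESeq2 called 5 members lower and 0 higher, against 216 lower and 221 higher of 19939 genes. The 2 *elf6* values were below both Col-0 values in 32 members (21% of all tested genes) and above both in 1 (23.7%). Fitted values were at least 2-fold lower in 21 members (6.65%) and at least 2-fold higher in 0 (4.68%).

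By group, the lower members with an unadjusted p under 0.05 were 3 of 7 wall genes, 2 of 2 RALF genes, 2 of 4 LRX genes, 1 of 4 CrRLK1L receptor kinases (AT2G21480), 2 of 5 ROP and calcium kinase genes, 3 of 7 transporters and pumps, and 5 of 11 actin genes. The PRK, MIKC* and germline groups had 0. The median log2 change was -1.65 for the RALF genes, -1.42 for the LRX genes and -1.10 for the ROP and calcium kinase genes, and it was nearest to 0 for the MIKC* genes (-0.14).

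The arabinogalactan proteins were separated between *elf6* and Col-0. AGP6 had 240 and 134 normalised CPM in *elf6*, against 608 and 540 in Col-0. AGP11 had 308 and 148 in *elf6*, against 856 and 761 in Col-0. Every *elf6* value lay well below every Col-0 value for both genes. The log2 fold change was -1.62 (SE 0.375) for AGP6 and -1.83 (SE 0.467) for AGP11, with edgeR adjusted p-values of 0.134 and 0.166. The call depends on the setting, since DESeq2 gave adjusted p-values of 0.00119 and 0.00244. Both genes also passed in edgeR with no filter and in the fit with a replicate block. Over all alternatives the adjusted p of AGP6 and AGP11 reached 0.791.

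The RALF ligands and LRX proteins, which act together in the tube wall, were also separated. RALF4 had 28.03 and 13.0 normalised CPM in *elf6*, against 54.1 and 50.04 in Col-0, with a fitted log2 change of -1.34 (SE 0.386, edgeR adjusted p = 0.21). RALF19 had 14.7 and 10.3 in *elf6*, against 71.7 and 25.6 in Col-0, with a fitted log2 change of -1.96 (SE 0.466, edgeR adjusted p = 0.143). The 2 Col-0 libraries themselves differed widely for RALF19, and no *elf6* value reached either. LRX10 had 59.3 and 31.2 normalised CPM in *elf6*, against 97.9 and 161 in Col-0, with a fitted log2 change of -1.52 (SE 0.549, edgeR adjusted p = 0.31). All 4 LRX genes lay below both Col-0 libraries in both *elf6* libraries, with log2 changes of -1.16 to -1.81. In TPM LRX8 overlapped, with 21.9 in *elf6* replicate 1 against 21.4 in Col-0 replicate 1. LRX9 and LRX10 were narrowly separated in TPM (20.2 against 20.5 and 32.8 against 33.9 in these libraries), and LRX11 was separated.

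Of the signalling members, ROPGEF9, CPK17, CPK34, PRK3 and PRK6 lay below both Col-0 values in both *elf6* libraries, with log2 changes of -1.64, -1.18, -1.10, -1.15 and -1.09. Several of these changes rest on few reads. ROPGEF9 had 7 and 4 counts in *elf6* against 17 and 10 in Col-0, PRK6 4 and 7 against 9 and 10, and CPK34 8 and 11 against 15 and 18. CPK17 overlapped in TPM, with 2.13 in *elf6* replicate 1 against 1.71 in Col-0 replicate 1. ROP1, the GTPase at the tube tip, had 15.6 and 10.9 normalised CPM in *elf6*, against 18.6 and 27.0 in Col-0, with a fitted log2 change of -0.79 (SE 0.340, edgeR adjusted p = 0.385). PRK2 had 12.1 and 6.31 in *elf6*, against 15.4 and 15.8 in Col-0, with a fitted log2 change of -0.76 (SE 0.419, edgeR adjusted p = 0.49). Both genes were lower in both *elf6* libraries in normalised CPM, but they overlapped in TPM. ROP1 had 18.1 TPM in *elf6* replicate 1, against 13.5 in Col-0 replicate 1, and PRK2 had 6.62 against 5.29. AT4G39110 overlapped between the genotypes, with 27.95 and 13.5 in *elf6*, against 25.6 and 46.0 in Col-0 (log2 change -0.79, SE 0.442, edgeR adjusted p = 0.496).

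Among the actin genes, ACT1 had 118 and 110.5 normalised CPM in *elf6*, against 196 and 174 in Col-0, with a fitted log2 change of -0.70 (SE 0.249, edgeR adjusted p = 0.303). ACT11 was the member with both *elf6* values above both Col-0 values, at 103 and 122 in *elf6*, against 80.4 and 95.8 in Col-0. SUC1 overlapped, with 152 and 201 in *elf6*, against 196 and 77.4 in Col-0 (log2 change 0.37, SE 0.441, edgeR adjusted p = 0.762). The MIKC* factor AGL30 and the germline histone MGH3 had log2 changes of -0.14 (SE 0.441, edgeR adjusted p = 0.925) and -0.68 (SE 0.501, edgeR adjusted p = 0.61). None of the 5 MIKC* genes was separated between *elf6* and Col-0.

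Further members with separated values included pumps, carriers and actin regulators. STP11 had 21.95 and 16.1 normalised CPM in *elf6*, against 35.2 and 53.9 in Col-0. ACA9 had 12.95 and 8.55 in *elf6*, against 19.1 and 24.8 in Col-0. PRF5 had 32.8 and 13.3 in *elf6*, against 83.5 and 45.6 in Col-0, and PLIM2A had 20.8 and 8.39 in *elf6*, against 37.3 and 23.2 in Col-0. In each of these the higher *elf6* library, replicate 1, lay below the lower Col-0 library in normalised CPM. In TPM this also held for PRF5 and PLIM2A, whereas ACA9 had 4.13 in *elf6* replicate 1 against 3.81 in Col-0 replicate 1. STP11 was nearly level in these libraries, at 13.84 and 13.88 TPM. The pectin methylesterases did not separate, since Col-0 replicate 1 was low for them. VGD1 had 352 and 207 normalised CPM in *elf6*, against 236 and 602 in Col-0.

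The size of the difference from Col-0 depended on the *elf6* library. Without *elf6* replicate 1 the median log2 fold change of the members was -1.29, and without *elf6* replicate 2 it was -0.53. Without the 2 libraries that stand apart the median was -0.88, and the log2 change of SUC1 was 1.20. That fit leaves Col-0 replicate 2, the library with the highest share of late pollen counts (0.422%), as the only Col-0 library. By library size alone the median of the members was -0.52 while that of all tested genes was 0.34, a difference of -0.85, against -0.82 with TMM.

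In *jmj13* the members lay less far from Col-0. The median log2 fold change of *jmj13* over Col-0 was -0.40, against 0.04 over all tested genes, and 42 of 52 members were below 0. edgeR called 0 members (0% of all tested genes), and DESeq2 called 1 lower, RALF19, against 256 lower of 19939 genes. At an unadjusted p under 0.05, 6 members were lower (7.61% of all tested genes) and 0 higher (3.59%). Both *jmj13* libraries were below both Col-0 libraries in 19 members (21.5% of all tested genes) and above both in 1, GEX2 (24.7%). Fitted values were at least 2-fold lower in 4 members (6.67%) and at least 2-fold higher in 0 (3.39%).

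RALF19 had 17.4 and 12.9 normalised CPM in *jmj13*, against 71.7 and 25.6 in Col-0, and both *jmj13* libraries were lower. Its log2 fold change was -1.68 (SE 0.460, edgeR adjusted p = 0.323). AGP6 had 372 and 227 in *jmj13*, against 608 and 540 in Col-0, with a fitted log2 change of -0.94 (SE 0.368, edgeR adjusted p = 0.421), again without overlap in normalised CPM. AGP11 had 502 and 261 in *jmj13*, against 856 and 761 in Col-0, with a fitted log2 change of -1.08 (SE 0.457, edgeR adjusted p = 0.432). SUC1 was likewise lower in both *jmj13* libraries, at 59.0 and 52.6 normalised CPM, against 196 and 77.4 in Col-0, with a fitted log2 change of -1.29 (SE 0.449, edgeR adjusted p = 0.406). In TPM RALF19 and SUC1 stayed separated, but AGP6 and AGP11 overlapped. AGP6 had 592 TPM in *jmj13* replicate 1, against 536 in Col-0 replicate 1, and AGP11 had 939 against 888.

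Other leading members overlapped between *jmj13* and Col-0. LRX10 had 117 and 41.8 normalised CPM in *jmj13*, against 97.9 and 161 in Col-0 (log2 change -0.71, SE 0.538, edgeR adjusted p = 0.597). PRK2, AT4G39110 and MGH3 had log2 changes of -0.25, -0.33 and -0.30, each smaller in size than its SE of 0.413, 0.437 and 0.490, with edgeR adjusted p-values of 0.816, 0.762 and 0.814. The signalling and actin genes RALF4, ROP1 and ACT1 were separated, with log2 changes of -0.81 (SE 0.380), -0.68 (SE 0.338) and -0.58 (SE 0.248) and edgeR adjusted p-values of 0.456, 0.475 and 0.433. In TPM each of them overlapped. *jmj13* replicate 1 then lay above Col-0 replicate 1, at 64.9 against 50.5, 20.3 against 13.5 and 108.8 against 92.2. Of the 5 MIKC* genes, 4 had fitted values above 0 (median 0.39). AGL30 had 0.42 (SE 0.432, edgeR adjusted p = 0.69), and AGL104 had both *jmj13* libraries below Col-0 in normalised CPM but not in TPM. ACT11, the member with every *elf6* value above every Col-0 value, had 56.8 and 63.8 normalised CPM in *jmj13*, against 80.4 and 95.8 in Col-0.

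The median of this contrast depended on the *jmj13* libraries. It was -0.05 without *jmj13* replicate 2 and -0.89 without replicate 1. Scaling by library size alone moved all genes alike, to a median of 0.48 over all tested genes and 0.03 over the members, and left their difference at -0.45. Without the 2 libraries that stand apart, which leaves Col-0 replicate 2 as the only Col-0 library, the median of the members was -0.50.

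For *ref6*, the median log2 fold change over Col-0 was -0.50, against -0.02 over all tested genes, with 45 of 52 members below 0. edgeR called 0 members (0.00502% of all tested genes) and so did DESeq2, which called 23 lower and 10 higher of 19939 genes. At an unadjusted p under 0.05, 10 members were lower (2.64% of all tested genes) and 0 higher (2.03%). Both *ref6* libraries were below both Col-0 libraries in 16 members (12.5% of all tested genes) and above both in 0 (13.6%). Fitted values were at least 2-fold lower in 10 members (3.84%) and at least 2-fold higher in 0 (2.43%).

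ACT4, a pollen actin, had 7.01 and 4.97 normalised CPM in *ref6*, against 14.0 and 14.1 in Col-0, with a fitted log2 change of -1.24 (SE 0.364, edgeR adjusted p = 0.915). AGP6 had 313 and 219 in *ref6*, against 608 and 540 in Col-0, with a fitted log2 change of -1.11 (SE 0.370, edgeR adjusted p = 0.999). ROP1 had 8.03 and 15.1 in *ref6*, against 18.6 and 27.0 in Col-0, with a fitted log2 change of -0.97 (SE 0.343, edgeR adjusted p = 0.999). The genotypes did not overlap in any of these genes in normalised CPM. In TPM ROP1 overlapped, at 6.07 and 17.5 in *ref6* against 13.5 and 29.4 in Col-0, while ACT4 and AGP6 did not. PLIM2A was also lower in both *ref6* libraries, at 15.1 and 13.6 normalised CPM, against 37.3 and 23.2 in Col-0.

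The LRX genes, in contrast, overlapped with Col-0 in all 4 cases, with log2 changes of -0.59 to 0.12. LRX10 had 155 and 66.1 normalised CPM in *ref6*, against 97.9 and 161 in Col-0 (log2 change -0.23, SE 0.536). AGP11, RALF4 and PRK2 were separated, with log2 changes of -1.03 (SE 0.457), -0.92 (SE 0.382) and -0.73 (SE 0.422). AT4G39110, SUC1, MGH3, ACT1 and AGL30 overlapped, at -0.56 (SE 0.441), -0.40 (SE 0.442), -0.27 (SE 0.498), -0.12 (SE 0.247) and 0.01 (SE 0.444). All 9 of these had an edgeR adjusted p of 0.999. Without the 2 libraries that stand apart, which leaves 1 library each of *ref6* and Col-0, the median of the members was -0.81.

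The 3 comparisons share the Col-0 libraries and are not independent of each other. Col-0 replicate 2, the library with the largest share of late pollen transcripts, enters each. Without it the medians were -0.75 in *elf6*, -0.30 in *jmj13* and -0.29 in *ref6*, against -0.79, -0.40 and -0.50 with it.

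**Figure D5:**
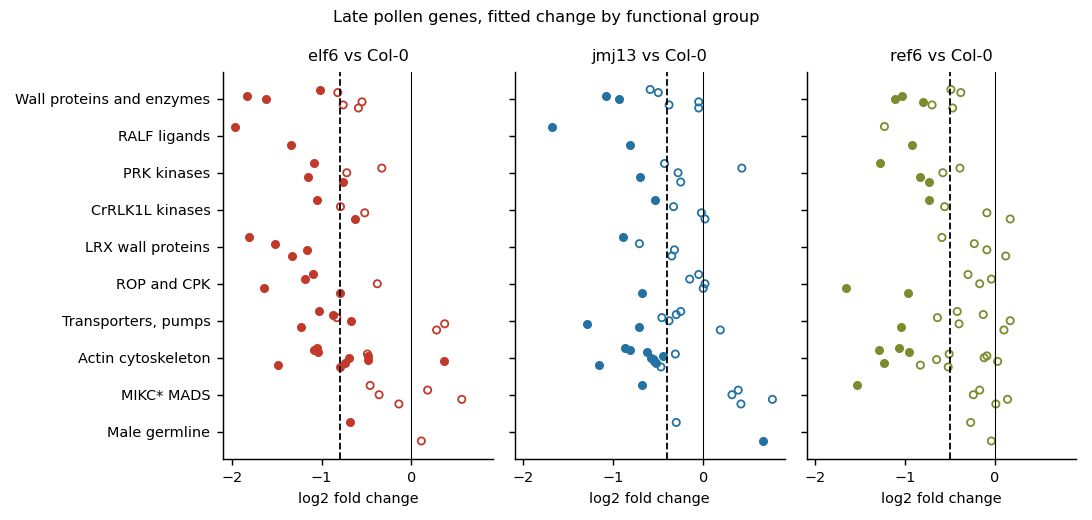
Fitted log2 fold change over Col-0 of the 52 tested late pollen genes in *elf6*, *jmj13* and *ref6*, by functional group. Each dot is 1 gene, filled where both mutant libraries lie outside the range of the Col-0 libraries on the same side in normalised CPM. The dashed line is the median of the genes (-0.79, -0.40 and -0.50). None of these genes passed an adjusted p of 0.05 in edgeR's test.

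*elf6* and *jmj13* were also set directly against each other, without Col-0 as the reference. The median log2 fold change of *elf6* over *jmj13* was -0.44 over the members and -0.03 over all tested genes, with 47 of 52 below 0. edgeR called 0 members (0.772% of all tested genes), while DESeq2 called 1 higher, against 395 higher of 19939 genes. At an unadjusted p under 0.05, 2 members were higher (5.99% of all tested genes) and 0 lower (2.79%). Both *elf6* libraries were below both *jmj13* libraries in 6 members (24.6% of all tested genes) and above both in 2 (23.5%). Fitted values were at least 2-fold higher in 1 member (4.84%) and at least 2-fold lower in 3 (2.83%).

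The 2 higher members were SUC1 and ACT11. SUC1 had 152 and 201 normalised CPM in *elf6*, against 59.0 and 52.6 in *jmj13*, with a fitted log2 change of 1.66 (SE 0.453, edgeR adjusted p = 0.174). ACT11 had 103 and 122 in *elf6*, against 56.8 and 63.8 in *jmj13*, with a fitted log2 change of 0.90 (SE 0.246, edgeR adjusted p = 0.175). For both genes every *elf6* value lay above every *jmj13* value. CPK17 had 3.47 and 1.76 in *elf6*, against 7.25 and 3.41 in *jmj13* (log2 change -1.03, SE 0.469, edgeR adjusted p = 0.582), with the second *jmj13* library just below the first *elf6* one. AGL30 and ACT1 lay below both *jmj13* values in both *elf6* libraries, at -0.56 (SE 0.429, edgeR adjusted p = 0.899) and -0.12 (SE 0.248, edgeR adjusted p = 0.997). LRX10, AGP11, RALF4, PRK2, AT4G39110, MGH3 and ROP1 overlapped, with log2 changes of -0.81, -0.74, -0.53, -0.51, -0.46, -0.38 and -0.11. For the members as a whole the sign depended on the libraries, with a median of 0.06 without *jmj13* replicate 1 and -0.97 without *elf6* replicate 1.

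Other gene lists moved beside the members. The other late pollen genes had medians of -0.39 in *elf6* (22 of 29 below 0), -0.11 in *jmj13* (15 of 29) and -0.31 in *ref6* (18 of 29), on the log2 scale of change over Col-0. At an unadjusted p under 0.05, 5, 5 and 0 of them were lower, against 7.28%, 7.61% and 2.64% of all tested genes. Of the 19939 tested genes, 9518, 9296 and 10374 were below 0 in *elf6*, *jmj13* and *ref6*. The vegetative paralogs had medians of -0.13 in *elf6* (23 of 36 below 0), -0.34 in *jmj13* (29 of 36) and 0.02 in *ref6* (17 of 36), with 2, 9 and 0 lower at an unadjusted p under 0.05. The 12 tested tapetum markers had medians of -0.12 in *elf6*, -0.72 in *jmj13* and -0.33 in *ref6*, each with 11 of 12 below 0. At an unadjusted p under 0.05, 1, 4 and 1 of them were lower. Their summed level was 1392 and 1824 TPM in *elf6*, 1131 and 1099 in *jmj13*, 867 and 1697 in *ref6*, and 1672 and 1635 in Col-0. The 5 tested late stamen markers, among them MYB21 and MYB24, had medians of -0.88, -1.34 and -0.01, and the 6 carpel and ovule markers 0.23, 0.38 and -0.84. The 7 green tissue markers had medians of -0.48, -0.74 and -0.01. The part of these cell types in the members' differences was not tested.

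Related members share sequence, and some counts rest on how reads were divided between them. Coding sequences were 90.0% identical in VGD1 and VGDH1, 90.5% in ACT1 and ACT3, 88.0% in ACT12 and ACT4 and 83.5% in PRF5 and PRF4. The ratio of VGD1 to VGDH1 counts was between 1.63 and 2.17 and that of ACT1 to ACT3 between 0.94 and 1.25. PLIM2A to PLIM2C stayed between 4.75 and 6.03 and LRX10 to LRX11 between 1.08 and 1.56. RALF4 to RALF19 was 0.75 in Col-0 replicate 1 and 1.12 to 2.21 in the other libraries. In 17 of 55 members the expected count was not a whole number in at least 1 library, as happens where RSEM divides reads between genes, and the rows of PPME1, PRK3, AHA6 and AHA8 also held transcripts of other loci.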

How the data were processed

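Buds of 4 genotypes were sequenced in 8 libraries as single-end reads after mRNA enrichment. Per the submitters' processing notes the reads were aligned to TAIR10 with Bowtie2 and counted with RSEM, whose versions are not given in the sources used here. The authors deposited 1 table per library, which lists for each gene an expected count (estimated reads, not scaled) and an FPKM value (scaled for gene length and library), with the gene length in bases. Genes that a table did not list were taken as 0. Between 89.2% and 91.7% of the listed expected counts were whole to within 0.005. TPM was computed from the deposited FPKM.

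Expected counts were rounded, filtered with filterByExpr by genotype, scaled by TMM and fitted with edgeR 4.0.16 (R 4.3.3) over all 8 libraries with genotype as the only factor. The study's own test, NOISeq, was not used here. Contrasts were tested by quasi-likelihood and p-values adjusted over 19939 genes. Called genes had an adjusted p below 0.05 with a fitted difference of 2-fold or more. The scripts were checked on simulated counts. The check had to pass only at a spread chosen to give 2 against 2 libraries power, so it does not measure power in these data. The counting floor was 3 counts, or 0.249 to 0.264 CPM, which covers counting error only.

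The members and all gene lists were chosen with earlier results of these data known. Fold changes with SE and p are given for the member with the highest mean TPM in each of 10 functional groups and for the 3 with the lowest p in each contrast. ACT11, named with its values in *elf6*, was the only member with every *elf6* value above every Col-0 value. Replicate ratios are log2 ratios of normalised CPM with a prior count of 1, and for Col-0 the 3 highest and lowest ratios among members with a mean of at least 1 TPM are named. Alternatives were DESeq2 1.42.0 (size factors and test), library size, upper quartile, no filter, a mean of at least 50 counts, 4 libraries only, a replicate block, limma 3.58.1 on log2(FPKM + 1) and log2(FPKM + 0.1), and leaving out libraries. A correction for gene length was chosen after seeing the data. Promoter windows and coding sequences came from RefSeq (TAIR10.1), where all 55 loci were found. LRX8 to LRX11 are named as in the gene list, since RefSeq gives these loci no symbol. Coding sequences were aligned with blastn.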

Additional observations from a re-analysis of the deposited data

How the results depend on the processing

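With 2 libraries per genotype, leaving out 1 moved the median log2 fold change of the members between -1.29 and -0.53 (*elf6* over Col-0), -0.89 and -0.05 (*jmj13* over Col-0), -0.67 and -0.29 (*ref6* over Col-0) and -0.97 and 0.06 (*elf6* over *jmj13*). A lone library was then assumed to vary like the other genotypes. Members called lower in *elf6* were 5 with DESeq2 and 7 with no filter, against 216 of 19939 and 237 of 25561 genes. In *jmj13* 1 was called lower with DESeq2 and 1 with no filter, against 256 of 19939 and 223 of 25561 genes. In *elf6* over *jmj13* 1 (SUC1) was called higher with DESeq2, with no filter and with only the 4 libraries compared. Of all genes, 395 of 19939, 407 of 25561 and 623 of 19460 were called higher in these settings. By library size alone the *jmj13* median was 0.03 and the replicate medians were -0.59 (Col-0, -0.46 over all tested genes) and -0.27 (*ref6*, -0.55 over all), the last being -0.18 on FPKM + 1 (-0.41 over all). The correction for gene length, chosen after seeing the data, gave medians of -0.86, -0.57, -0.59 and -0.43 in the 4 contrasts. Over all tested genes, edgeR called 24 higher and 0 lower in *elf6*, 0 and 0 in *jmj13*, 0 and 1 in *ref6* and 145 and 9 in *elf6* over *jmj13*, whereas DESeq2 called 221 and 216, 8 and 256, 10 and 23, and 395 and 39. The cause of these changes was not tested.

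Some named members changed sign. In *elf6* over Col-0, AGL30 was 0.12 by library size, 0.17, 0.29 and 0.17 in the limma fits and up to 0.54 when a library was left out (-0.57 at the lowest), and SUC1 was between -0.16 and 1.20. In *jmj13* over Col-0, PRK2, AT4G39110 and MGH3 were 0.20, 0.06 and 0.16 by library size, 0.09, 0.08 and 0.12 with limma on FPKM + 1 (all genes or a mean FPKM of at least 1) and 0.08, 0.09 and 0.13 on FPKM + 0.1. MGH3 was 0.05 with the length correction, and AGL30 was -0.04 without the 2 libraries that stand apart, which gave -0.25 in *ref6*. With a library left out, PRK2, AT4G39110 and AGL30 ranged over -1 to 0.24, -1 to 0.13 and -0.02 to 1.09 in *jmj13* over Col-0. LRX10, SUC1, AGL30 and MGH3 ranged over -0.97 to 0.26, -1 to 0.42, -0.42 to 0.69 and -0.62 to 0.03 in *ref6* over Col-0. PRK2, AT4G39110, LRX10, ROP1 and MGH3 ranged over -1.05 to 0.24, -1.08 to 0.21, -1.37 to 0.12, -0.38 to 0.13 and -1.01 to 0.06 in *elf6* over *jmj13*.

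With the replicate number as a block, 6 members were called lower in *elf6* over Col-0, against 127 lower of 19939 genes, and 0 in either direction in the other 3 contrasts, and the medians were -0.84, -0.48, -0.54 and -0.44. The replicates share only a number. Deviations of same-numbered libraries correlated across genes at 0.08 (Col-0 and *elf6*), 0.011 (Col-0 and *jmj13*), 0.334 (Col-0 and *ref6*), 0.248 (*elf6* and *jmj13*), 0.064 (*elf6* and *ref6*) and 0.054 (*jmj13* and *ref6*), which does not establish a pairing.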

Other observations

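The second list of 34 late pollen genes, of which 29 had enough counts to be tested, followed the same libraries in part. The small arabinogalactan protein genes AGP23 and AGP40 were its most abundant genes. AGP23 had 416 and 240.0 TPM in *elf6*, 644 and 431 in *jmj13*, 587 and 364 in *ref6*, and 953 and 615 in Col-0, so that replicate 1 was the higher library in each genotype. AGP40 had 294 and 147, 235 and 132, 217 and 136, and 369 and 216 TPM in *elf6*, *jmj13*, *ref6* and Col-0, with the same order of replicates. VGDH2, a relative of VGD1, had 84.8 and 43.1 TPM in *elf6*, 119.7 and 59.97 in *jmj13*, 42.6 and 58.0 in *ref6*, and 43.6 and 100.1 in Col-0, which is the order seen in VGD1 and VGDH1.

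ROP3, which is also used outside pollen, had 56.6 and 60.3 TPM in *elf6*, 66.7 and 71.5 in *jmj13*, 38.8 and 54.1 in *ref6*, and 35.0 and 64.6 in Col-0. MYB101, a tube transcription factor, had 14.7 and 11.9 TPM in *elf6* and 12.1 and 12.4 in *jmj13*, with log2 ratios of replicate 1 to replicate 2 of 0.30 and -0.09 on normalised CPM. The transcription factor gene MYB120 was listed at 0 in 6 of 8 libraries and at most at 0.07 TPM in the others.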
